A study of Mus musculus with 6 samples.

Results

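The genes described here are the shortest in the data: 246 of 2744 genes (8.965%) whose body, the transcript beyond a window at its start, was 6000 bp or less. Every row of the authors' table had an adjusted p of at most 0.0498 in their comparison of body counts between the groups. Among those rows the genes were chosen by length alone, with 1 transcript row per gene. That was the row with the highest mean body count among rows within the limit. The table held 258 such rows, and 12 were left out because another short row of the same gene was used. For 5 of the genes, Anapc15, Lif, Lratd2, Lrp1 and Tgif1, a longer row of the same gene had more body reads. Body lengths ran from 756 bp in S100a8 and 788 bp in Gm10645 to 5949 bp in Cyren and 5967 bp in Gm36486, with a median of 3416 bp. Just over the limit lay Cdkn2c at 6012 bp and Spink2 at 6030 bp.

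The counts come from PRO-seq, which sequences nascent RNA extended by engaged polymerases during a short run-on, here of 3 min. The cells were cKIT+ progenitors from the bone marrow of female C57/BL6 mice with the genotype Mllt3 flox/flox Rosa26Cre+. In the WT group they were transduced with wild-type MLLT3, and in the DM group with MLLT3 bearing K63E together with K67E. Both groups were sorted and then grown for 8 days in methylcellulose with cytokines and 200 nM 4-hydroxytamoxifen, so both also carried the floxed Mllt3 alleles and the Cre. Each group had 3 libraries, all in batch 1. The animals' age is not given, nor whether libraries of a group came from separate animals or cultures, so p-values measure only the spread between libraries, which may be technical.

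AF9, the other name of MLLT3, reads modified histones and works with the elongation machinery. At most active genes polymerase pauses shortly after initiation and is released into the body by the kinase P-TEFb, so reads collect near the start. A very short gene is crossed soon after release, and many such genes encode secreted proteins, granule proteins, receptors and quickly induced regulators of myeloid cells. In every library, reads were counted in a head window of 330 bp, whose first base lay 30 bp before the 5′ end of the transcript, and in the body behind it. RPM below means reads per 1000000 of the deposited library total, and density means reads per base of a window.

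Library totals ran from 15112853 to 22981603 reads. The Mllt3 row, which spans introns and cannot tell endogenous from added sequence, had body RPM of 80.6, 77.2 and 95.3 in the WT replicates, in order, against 58.4, 63.0 and 58.9 in the DM replicates. It therefore does not check which protein a library carried. Kit, which marks the cKIT+ cells taken before culture, had between 13077 and 35308 body reads in every library. Its body RPM was 1224, 1031 and 1543 in WT against 651, 667 and 654 in DM. Markers of other cells moved with the groups: all 7 of 15 listed neutrophil and macrophage markers that were in the table were higher in DM, with summed body RPM from 242 to 311 in WT against from 657 to 732 in DM, and none of the 7 was at 0 in any library. The 5 of 10 mast and basophil markers summed to between 2627 and 3846 RPM in WT against between 1816 and 1902 in DM. The 8 of 12 stem and progenitor markers summed to between 2806 and 3584 in WT against between 1725 and 1795 in DM. Procr alone among them went the other way and was higher in every DM library, on few reads. Gata2 is in both this list and the mast and basophil list, so those sums are not independent. In the mast and basophil list it was the largest member in every library. The 4 of 12 erythroid and megakaryocyte markers ran from 197 to 223 in WT against from 107 to 125 in DM. Of 10 lymphoid markers only 1, Il7r, was in the table, and it was higher in DM. Its body RPM was 18.8, 19.9 and 28.5 in WT against 69.0, 56.0 and 71.5 in DM. In bulk libraries, fewer cells of a type and less RNA per cell cannot be told apart, and the part of these cells in the results below was not tested. WT replicates 1 and 2 each stood apart in ways described below. The calls of named genes that turn without 1 of them are given with the head and body counts and beside the genes. Leaving out both leaves 1 WT library and no spread between WT libraries, so for that setting the sizes of changes are given.

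A promoter in the RefSeq table of GRCm38.p6, the same assembly as mm10, was matched by symbol to 176 of the 246 genes, and for 146 its start lay within 100 bp of the start of the deposited row. The 250 bases upstream of those starts were searched, on both strands, for GGGCGG (a GC box, read as CCGCCC on the other strand) and for TTGCNNAA (a core of C/EBP sites, read as TTNNGCAA on the other strand). TATAA was searched on the gene's strand from 40 to 16 bases upstream. Motifs were allowed to overlap. The 120 bases just upstream of the start are printed 5′ to 3′ on the gene's strand, with these motifs in capitals.

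The first set is shown because TTGCNNAA was present in 18.3% of 71 promoters of genes with more body reads in DM and in 5.48% of 73 promoters of genes with fewer. It was in 6.46% of 1578 promoters of the longer genes and in 9.55% of all 27025 RefSeq promoters. Cores of sites of the factor Spi1 and of Gata1-type factors were searched as well and are not marked below. The Spi1 core was in 36.6% of the promoters of the genes with more body reads and 21.9% of those with fewer. The Gata1-type core was in 7.04% and 6.85%. Cd68, Ch25h, Ffar2 and Pilrb2 had more body reads in DM, and Fcer1a had fewer.
Cd68 (chr11:69666171-69666290, minus strand): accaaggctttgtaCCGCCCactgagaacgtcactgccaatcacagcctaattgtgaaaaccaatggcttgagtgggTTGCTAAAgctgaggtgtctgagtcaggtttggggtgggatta
Ch25h (chr19:34475149-34475268, minus strand): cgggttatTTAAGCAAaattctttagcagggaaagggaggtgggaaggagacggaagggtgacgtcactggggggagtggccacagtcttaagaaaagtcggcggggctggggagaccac
Ffar2 (chr7:30821140-30821259, minus strand): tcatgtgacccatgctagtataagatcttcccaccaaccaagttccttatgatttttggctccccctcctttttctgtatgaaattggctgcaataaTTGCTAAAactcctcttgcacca
Pilrb2 (chr5:137871759-137871878, minus strand): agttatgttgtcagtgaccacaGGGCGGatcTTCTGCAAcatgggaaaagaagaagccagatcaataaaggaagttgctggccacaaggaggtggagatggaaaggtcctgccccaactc
Fcer1a (chr1:173227230-173227349, minus strand): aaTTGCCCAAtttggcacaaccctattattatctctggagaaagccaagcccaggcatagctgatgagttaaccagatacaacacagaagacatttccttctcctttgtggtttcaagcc
The match is a description of these windows and not evidence of a bound site. Fcer1a, whose body and head counts both went the other way, holds the same letters.

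The second set shows the ends of the range of head density over body density. Kctd12 and Mad2l1bp are head-heavy, while Gzmb and Lyl1 carry fewer reads per base in the head than in the body.
Kctd12 (chr14:102982638-102982757, minus strand): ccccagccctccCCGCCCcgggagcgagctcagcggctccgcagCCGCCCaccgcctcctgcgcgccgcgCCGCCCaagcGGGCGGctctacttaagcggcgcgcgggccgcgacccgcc
Mad2l1bp (chr17:46153552-46153671, minus strand): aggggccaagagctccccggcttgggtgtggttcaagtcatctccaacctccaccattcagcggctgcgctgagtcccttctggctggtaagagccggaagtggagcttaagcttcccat
Gzmb (chr14:56262335-56262454, minus strand): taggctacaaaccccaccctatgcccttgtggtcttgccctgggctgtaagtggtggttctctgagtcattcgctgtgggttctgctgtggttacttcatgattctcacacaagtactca
Lyl1 (chr8:84701337-84701456, plus strand): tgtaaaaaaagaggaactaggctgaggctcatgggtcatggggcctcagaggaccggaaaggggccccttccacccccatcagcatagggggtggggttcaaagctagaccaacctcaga
Kctd12 has 4 GC boxes in the printed window, and the other promoters of this set have none. GC boxes were found in 56.2% of the 146 promoters, in 68.6% of 1578 promoters of the longer genes and in 32.9% of all RefSeq promoters. Among the short genes the share was 44.9% in the 49 promoters with the lowest head to body density, 56.2% in the next 48 and 67.3% in the 49 with the highest. The median ratio of observed to expected CpG in the same promoters was 0.394, 0.606 and 0.760.

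The third set shows TATA boxes, which were found in 8.22% of the short genes' promoters, 2.03% of the longer genes' promoters and 3.83% of all RefSeq promoters.
S100a4 (chr3:90603650-90603769, plus strand): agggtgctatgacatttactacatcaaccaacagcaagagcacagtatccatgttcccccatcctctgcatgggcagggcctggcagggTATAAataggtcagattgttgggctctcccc
Il13 (chr11:53634703-53634822, minus strand): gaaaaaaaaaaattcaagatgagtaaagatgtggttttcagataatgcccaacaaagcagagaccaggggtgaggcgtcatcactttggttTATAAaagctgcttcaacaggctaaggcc
Rps26 (chr10:128626507-128626626, minus strand): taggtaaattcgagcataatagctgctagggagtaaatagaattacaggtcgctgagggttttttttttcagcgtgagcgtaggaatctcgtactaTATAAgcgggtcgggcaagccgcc
The 12 short genes with a TATAA in that window were Ccn1, Gstm1, Il13, Klf4, P2ry13, Rpl22l1, Rps26, S100a4, S100a8, Tnf, Tubb2a and Zfp36l1. Their median head to body density was 8.60, against 4.27 for the 134 without it. Of these 12, 7 had more body reads in DM and 5 had fewer.

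Short genes carried a large part of their reads in the head. Summed over the 246 genes, WT replicates 1 to 3 had 40.4, 54.9 and 43.4 head reads per 100 body reads, and DM replicates 1 to 3 had 37.8, 42.2 and 40.3. WT replicate 2 was the highest of the 6, and the other libraries of both groups overlapped. The means were 46.2 ± 7.67 in WT against 40.1 ± 2.18 in DM (SD, n = 3 each). Their difference of -6.13 was not separated by an exact permutation test over libraries (two-sided p = 0.2, with 0.1 the smallest possible). The difference was -1.79 without WT replicate 2, -9.04 without WT replicate 1 and -3.25 without both.

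The gap between WT replicate 2 and the other libraries was wider in longer genes. In genes with longer bodies, the head reads for every 100 in the body were 12.1, 22.0 and 13.7 in WT against 11.5, 13.2 and 12.5 in DM, and the 309 genes with bodies of 150000 bp or more had 4.57, 9.75 and 5.39 in WT against 4.85, 5.58 and 5.21 in DM. Per base, the median short gene had a head to body density of 3.73, 4.29 and 4.21 in WT against 3.76, 4.36 and 4.12 in DM, so WT replicate 2 lay inside the range of the others. In the genes of 150000 bp or more the same median was 36.4, 79.0 and 49.8 in WT against 39.5, 45.9 and 42.5 in DM, with WT replicate 2 far above the rest. The cause was not tested. As a log2 difference in head to body ratio between short and longer genes, WT replicates gave 1.74, 1.32 and 1.67 and DM replicates 1.72, 1.68 and 1.69. DM exceeded WT by 0.12 on that scale (exact permutation p = 0.6), and by -0.01 without WT replicate 2.

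**Figure D1:**
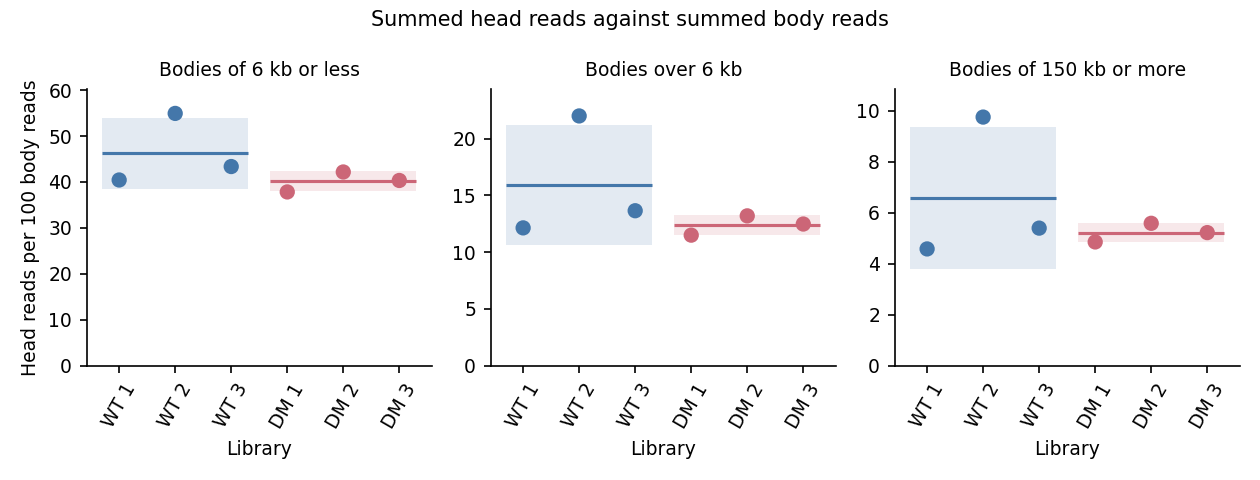
Head reads per 100 body reads in each of the 6 libraries, summed over genes with bodies of 6 kb or less, over longer genes and over genes of 150 kb or more; points are libraries, lines are group means and shaded bands are 1 SD either side. WT replicate 2 is highest in all 3 panels, at 54.9 in the short genes and 9.75 in the longest, and the scales of the panels differ.

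The short bodies held 0.798%, 0.855% and 0.831% of the library total in WT against 0.964%, 0.900% and 0.955% in DM, so the groups did not overlap (difference 0.112 percentage points, exact permutation p = 0.1, the smallest possible). As a share of all body reads in the table, the values were 4.69%, 5.38% and 4.52% in WT against 4.87%, 4.77% and 4.89% in DM, and the difference was -0.0237 (exact permutation p = 1.0). The rows of the table were themselves selected by the body comparison. The short heads held 0.384% ± 0.0764 of the total in WT against 0.376% ± 0.0106 in DM (SD, n = 3 each).

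Among the short genes, the head to body density ran from 0.392 in Gm45472 to 60.2 in Mad2l1bp, with a median of 3.90. The shortest bodies were the least head-heavy per base: the median was 2.52 for the 51 genes of 2000 bp or less, 4.46 for the 100 genes of 2000 to 4000 bp and 4.83 for the 95 genes of 4000 to 6000 bp. Summed raw ratios ran the other way, since a longer body collects more reads: 73.9 ± 7.53, 49.9 ± 7.04 and 34.8 ± 7.44 head reads for every 100 in the body in WT, and 64.0 ± 3.45, 45.0 ± 2.23 and 28.8 ± 1.61 in DM (SD, n = 3 each).

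Mad2l1bp, which encodes p31comet, a silencer of the spindle checkpoint, stood at the head-heavy end (chr17:46147388-46153553). It had 631, 1026 and 780 head reads in WT against 653, 749 and 778 in DM, over a 5865 bp body with 183 to 301 reads in any library. Stmn1, the microtubule-destabilising stathmin, had a density ratio of 33.4, Kbtbd7, an adaptor of a ubiquitin ligase, 29.9, and Kctd12, a subunit of GABA-B receptors, 28.4. All 4 were head-heavy in each library.

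At the body-heavy end, Tpsb2, the mast cell tryptase, had 0.548 times as many reads per base in the head as in the body. Lyl1, a helix-loop-helix factor of blood progenitors, had 0.640, Gzmb, the granule protease granzyme B, 0.759, and AI467606 0.825. Lyl1 overlaps Nfix in the annotation, and whether strand was used in counting is not given in the sources used here. Gm45472, Lrrc25 and Phox2a lay lower still, at 0.392, 0.481 and 0.483, but on means of 7.33, 14.2 and 5.83 head reads. Those 3 were named after their values were seen.

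**Figure D2:**
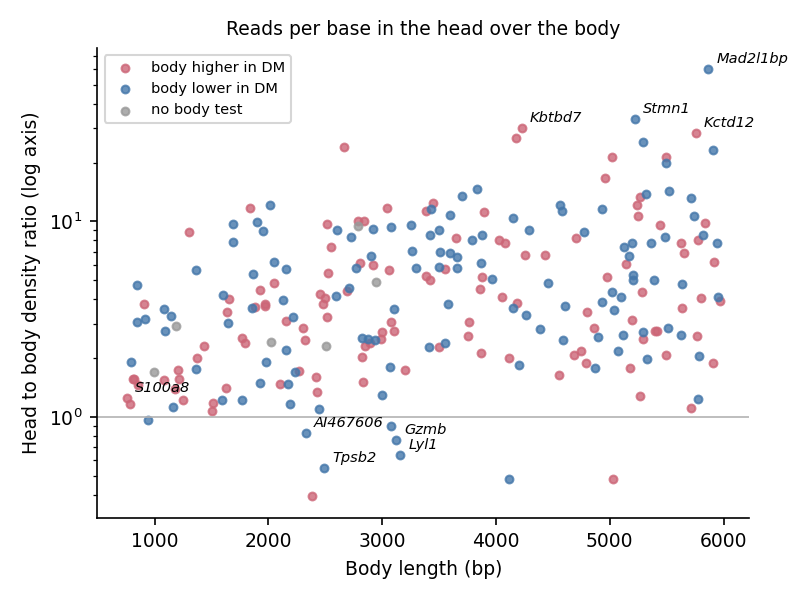
Head density over body density (log axis) against body length in bp, 1 point per short gene, averaged over the 6 libraries and coloured by the direction of the body change; the grey line marks equal density. Mad2l1bp lies highest at 60.2, and Tpsb2, Gzmb, Lyl1 and AI467606 lie under the line.

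Between the groups, body counts are a description only, because every row in the table had an adjusted p under 0.05 for the body in the authors' deposited table. By the sign of the authors' deposited log2 fold change, 118 of the 246 short genes were higher in DM and 128 were lower; over all 2744 genes the same rule gave 57.0% higher and 43.0% lower. In the edgeR fit with library totals, all 240 short genes that could be tested passed an adjusted p of 0.05 (118 higher, 122 lower), against 99.5% of all genes tested (57.4% higher, 42.1% lower). Body RPM did not overlap between groups in 228 of the 246, against 95.0% of all genes. Their median body log2 fold change was -0.32, where the median of all genes tested was 0.40. With TMM scaling the 2 medians were -0.61 and 0.11, and 86 short genes passed as higher and 121 as lower, against 34.7% and 42.5% of all genes tested. Without WT replicates 1 and 2 the median of the short genes was 0.08 and that of all genes 0.28. Of 99 named genes with a body test, 29 no longer passed without at least 1 DM replicate (edgeR adjusted p up to 0.140): AI480526, Anapc15, Atp5k, Ccn1, Ccn2, Cd63, Cish, Cited2, Cox6b2, Cyren, Fcer1a, Fgf4, Gdf3, Gpr171, H2az1, Lefty1, Lyl1, Mad2l1bp, Phox2a, Pilrb2, Rpl13a, Rpl22l1, Rpl38, Rps26, Snhg15, Stmn1, Tubb2a, Tubb2b and Zfp36l1. Without WT replicate 1 the bodies of Anapc15, Ccn1, Ccn2, Cish, Fgf4, Gdf3, Gpr171 and Lefty1 did not pass, without WT replicate 2 those of Cited2 and Lyl1, and without WT replicate 3 those of Cited2, Cyren, Fcer1a, Gpr171 and Lyl1 (edgeR adjusted p from 0.0532 to 0.920). Without WT replicates 1 and 2, which leaves 1 WT library, several decreases shrank. The body log2 fold changes of Ccn1, Ccn2 and Epop were -0.095, -0.427 and -0.525, in place of -2.60, -2.35 and -1.98. Those of Cish, Cox6b2, H2ax, Lefty1 and Nop56 were -0.143, -0.67, -0.148, -0.652 and -0.211, in place of -0.277, -1.353, -0.711, -2.177 and -0.622. Body log2 fold changes below are on the library total scale.

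Head counts did not choose the table directly. The body counts that did came from the same libraries, so the head calls are not free of that selection. Of 233 short genes tested, 82 heads passed an edgeR adjusted p of 0.05, 49 higher and 33 lower in DM, or 35.2%, against 20.5% of all heads tested (9.62% higher and 10.9% lower). The RPM of the groups' libraries did not overlap in 151 of the 246 short heads, or 61.4%, against 41.0% of all heads. The median head log2 fold change was -0.08 in the short genes and -0.11 in all genes. The calls rested on all the DM libraries, since 5 short genes passed without DM replicate 1, 40 without DM replicate 2 and 21 without DM replicate 3, against 0.532%, 7.9% and 4.27% of all heads tested. Without WT replicate 2, 125 passed, against 36.0% of all heads, and without WT replicates 1 and 2, 139 passed, against 41.7%. The 5 that kept the call without DM replicate 1 were Il1rn, Lyz2, S100a8, Wfdc21 and Serpina3g, with edgeR adjusted p from 0.0437 to 0.0480; every other head call given below was lost without that library. The sizes of the changes moved little: the 82 heads had a median absolute log2 fold change of 1.24 with all libraries and of 1.21, 1.27 and 1.24 without DM replicate 1, 2 and 3, and each kept its sign in all 3.

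Calls of named heads also turned without WT libraries. Without WT replicate 2, 16 of 93 named heads passed that did not pass with all libraries, namely Actb, Cebpb, Cebpd, Ctsg, Ffar2, Fth1, Ftl1, Gstm1, Klf4, Lcn2, Lrrc25, Rpl22l1, S100a1, Socs3, Tnf and Tubb2a, and 0 were lost. Without WT replicate 1, Ddit4, H2az1, Hcar2, Lcn2, Lratd2, Stmn1 and Tubb2a passed, and Gm19426 and Kctd12 were lost. Without WT replicate 3, H2az1 and Tnf passed, and 18 heads were lost (edgeR adjusted p from 0.0507 to 0.182): A930104D05Rik, Adora3, Anapc15, Asprv1, Ccl4, Ccl9, Ch25h, Gata1, Gm43181, Gpr171, Hes1, Id1, Kctd12, Lpar6, Plk2, Sgk1, Tlr2 and Tpsb2. Without WT replicates 1 and 2 together, the head log2 fold change of Gm19426 was -0.53, in place of -2.56.

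Of 232 short genes with both tests, 219 had the same sign in head and body, or 94.4%, against 79.6% of 2577 genes over the whole table. Of the 82 heads that passed, 81 had the sign of their body, none had the opposite sign, and Gm19426 had no body test; of 527 called heads among all genes, 99.4% had the sign of their body. Head and body counts come from the same libraries, and the bodies were selected, so these counts describe the rows. In 10 genes the body was higher and the head lower in DM by point estimate, and in 3 the reverse held.

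**Figure D3:**
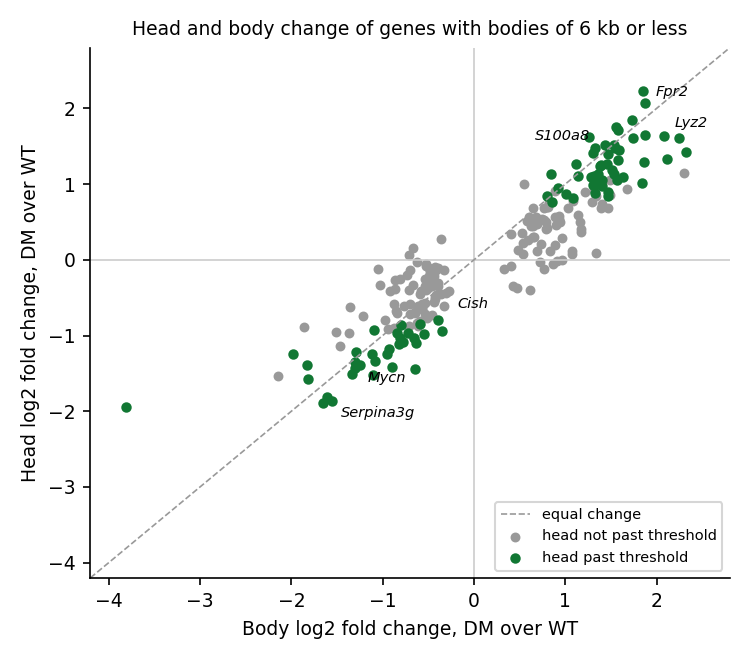
Log2 fold change of head counts against log2 fold change of body counts, DM over WT, 1 point per short gene with both tests; green points passed the head test and the dashed line marks equal change. Most points lie at the lower left and upper right, where 219 of 232 genes have the same sign.

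The change of the ratio of head to body reads was tested as an interaction of window and group within libraries. No short gene of 232 passed an edgeR adjusted p of 0.05, where 0.0776% of all genes passed, and 31 short genes had an unadjusted p under 0.05. The median log2 change of the ratio was -0.14 in the short genes and -0.26 in all genes. DESeq2, which gave an adjusted p for 129 short genes, called Fth1, the ferritin heavy chain, and Gm36486, with 1.87% of all genes called. Without WT replicate 2, 7 short genes passed, or 3.00%, which is near the 3.14% of all genes. The rise is therefore not particular to the short genes. Without WT replicates 1 and 2, which leaves 1 WT library, the median log2 change was -0.11 in the short genes and -0.20 in all genes.

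Fth1 is given as an example (chr19:9982647-9985098), and the called genes did not all change in the same way. For every 100 body reads it had 51.2, 95.5 and 59.95 in the head in WT against 32.0, 36.8 and 33.9 in DM, so the groups did not overlap. Its body rose from 186 ± 6.92 to 392 ± 24.8 RPM, while its head was at 127 ± 38.8 and 134 ± 6.30 RPM (SD, n = 3 each). The log2 change of its ratio was -0.96 (edgeR adjusted p 0.194), and -0.70 without WT replicate 2 (0.0316). For every 100 reads in its body, Kbtbd7 held 242, 547 and 358 in the head in WT against 138, 190 and 135 in DM (log2 change -1.22, edgeR adjusted p 0.181), and passed without WT replicate 1 (0.0375). Cyren, a regulator of DNA end joining, went the other way, from 16.7, 20.1 and 18.5 to 24.1, 29.4 and 32.6 (0.63, edgeR adjusted p 0.275), and passed without WT replicate 2 (0.0480). Fth1 was named after its values were seen.

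Several of the short genes named for an increase have known roles in neutrophils or macrophages. Lyz2, which encodes lysozyme (ENSMUSG00000069516.8; chr10:117277332-117282321), had 760, 753 and 1486 body reads in WT against 4929, 3662 and 4556 in DM, and 136, 148 and 212 against 547, 533 and 548 head reads. Every DM library was above every WT library in both windows. The body log2 fold change was 2.08 (SE 0.22), and the head rose by 1.64 (SE 0.27, edgeR adjusted p 0.00532). Lyz2 has a close paralog, and how reads with several matches were handled is not given in the sources used here. S100a8, a subunit of the neutrophil protein calprotectin (ENSMUSG00000056054.9; chr3:90668979-90670035), had 223, 153 and 192 head reads in WT against 606, 551 and 544 in DM. Its head rose from 9.41 ± 0.903 to 27.0 ± 0.411 RPM (SD, n = 3 each; log2 fold change 1.52, SE 0.24, edgeR adjusted p 0.00525) and its body by 1.53. S100a8 has the shortest body of the 246 genes, at 756 bp, and its head and body fold changes were close to equal.

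Wfdc21, which encodes a secreted protein with a whey acidic protein domain, rose by 1.61 in the head (edgeR adjusted p 0.00532) and 1.74 in the body. Fpr2, a receptor for formylated peptides, had 22, 5 and 31 head reads in WT against 84, 76 and 84 in DM, a head change of 2.07 on the log2 scale (SE 0.38, edgeR adjusted p 0.00582). Stfa3, a cysteine protease inhibitor of the stefin A cluster, had 311, 157 and 221 body reads in WT against 947, 669 and 950 in DM, and its head passed as well (1.30, edgeR adjusted p 0.00964). Asprv1, an aspartic protease, had the sparsest counts of this group, with 47, 31 and 19 body reads in WT against 124, 145 and 213 in DM (log2 fold change 2.25, SE 0.42). The unnamed transcript Gm43181 had body RPM of 6.44 ± 1.79 in WT against 28.2 ± 3.60 in DM (SD, n = 3 each). In all 5 genes the groups did not overlap in either window.

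All 4 short S100 genes, which encode small calcium-binding proteins, had more body reads in DM, and 3 of 4 heads passed as higher. Over S100 genes of all lengths, 11 bodies were higher and 1 was lower. For this and the lists below, 57.4% of all bodies tested passed as higher and 42.1% as lower. Of all heads tested, 9.62% passed as higher and 10.9% as lower, and of the short heads 21.0% and 14.2%. S100a11 had 920, 580 and 908 body reads in WT against 2120, 1490 and 1860 in DM, with a head log2 fold change of 1.11 (edgeR adjusted p 0.0105). S100a4, whose TATA box is printed above, had 59, 65 and 112 head reads in WT against 205, 185 and 199 in DM (1.26, edgeR adjusted p 0.0102). The head of S100a1, which overlaps S100a13 in the annotation, was at 3.46 ± 1.37 RPM in WT against 5.75 ± 0.482 in DM (SD, n = 3 each) and did not pass (edgeR adjusted p 0.0996). Its log2 fold change of 0.74 was 0.89 without WT replicate 2, where it passed (edgeR adjusted p 0.0287). Without WT replicate 1 it was 0.43 and did not pass (edgeR adjusted p 0.152).

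Surface and adaptor genes of myeloid cells went the same way, with 4 of 4 bodies higher and 2 of 4 heads passing as higher. Over genes of all lengths in that list, 22 bodies were higher and 1 was lower. Tlr2, a receptor for bacterial lipoproteins, had 522, 441 and 692 body reads in WT against 1920, 1497 and 1704 in DM, and its head rose by 1.06 (SE 0.29, edgeR adjusted p 0.0202). Cd14, the co-receptor for lipopolysaccharide, had a head log2 fold change of 1.14 (edgeR adjusted p 0.0106). Tyrobp, the signalling adaptor DAP12, and Cd68, a lysosomal membrane protein of macrophages, had body log2 fold changes of 0.64 and 0.52, and their heads did not pass (edgeR adjusted p 0.212 and 0.329). The head of Cd68 overlapped between groups, with 808, 312 and 776 reads in WT against 861, 817 and 740 in DM, and its body no longer passed with DESeq2 (adjusted p 0.0565).

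Of 10 chemokine and cytokine genes, 8 bodies were higher and 2 lower in DM, and 5 heads passed as higher and 2 as lower. Ccl6, a myeloid chemokine, had 459, 300 and 446 head reads in WT against 1057, 966 and 968 in DM, or 19.8 ± 0.249 and 47.5 ± 1.11 RPM (SD, n = 3 each; log2 fold change 1.26, SE 0.22, edgeR adjusted p 0.00542). Il1rn, the natural antagonist of the interleukin-1 receptor, had body RPM of 30.2 ± 2.99 in WT against 110 ± 10.95 in DM (SD, n = 3 each), and its head rose by 1.65 (edgeR adjusted p 0.00525). The neighbouring Ccl9, Ccl3 and Ccl4 passed as higher in the head too, by 1.00, 1.13 and 0.81. Ccl6 and Ccl3 overlap another annotated gene.

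Tnf, which encodes tumour necrosis factor, had body reads of 3171, 2968 and 4308 in WT against 7217, 6398 and 5690 in DM. Its head was at 64.7 ± 22.5 and 105 ± 4.52 RPM (SD, n = 3 each) and did not pass (log2 fold change 0.69, edgeR adjusted p 0.0667). It passed without WT replicate 2 (0.46, edgeR adjusted p 0.00864) and without WT replicate 3 (0.97, 0.0407). Without WT replicates 1 and 2 its log2 fold change was 0.25. The 2 genes that fell were Il13, a cytokine of type 2 immunity and mast cells, and Lif, the leukemia inhibitory factor. Il13 had 340, 307 and 272 head reads in WT against 126, 120 and 122 in DM, a change of -1.42 on the log2 scale (SE 0.27, edgeR adjusted p 0.00648). For Lif the body held 8980, 2605 and 2914 reads in WT against 2569, 1723 and 1681 in DM, with WT replicate 1 far above the rest; its head log2 fold change was -1.22 (edgeR adjusted p 0.00821), and it passed without WT replicate 1 (0.00429). Without that library the body log2 fold change of Lif was -0.67 in place of -1.29.

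**Figure D4:**
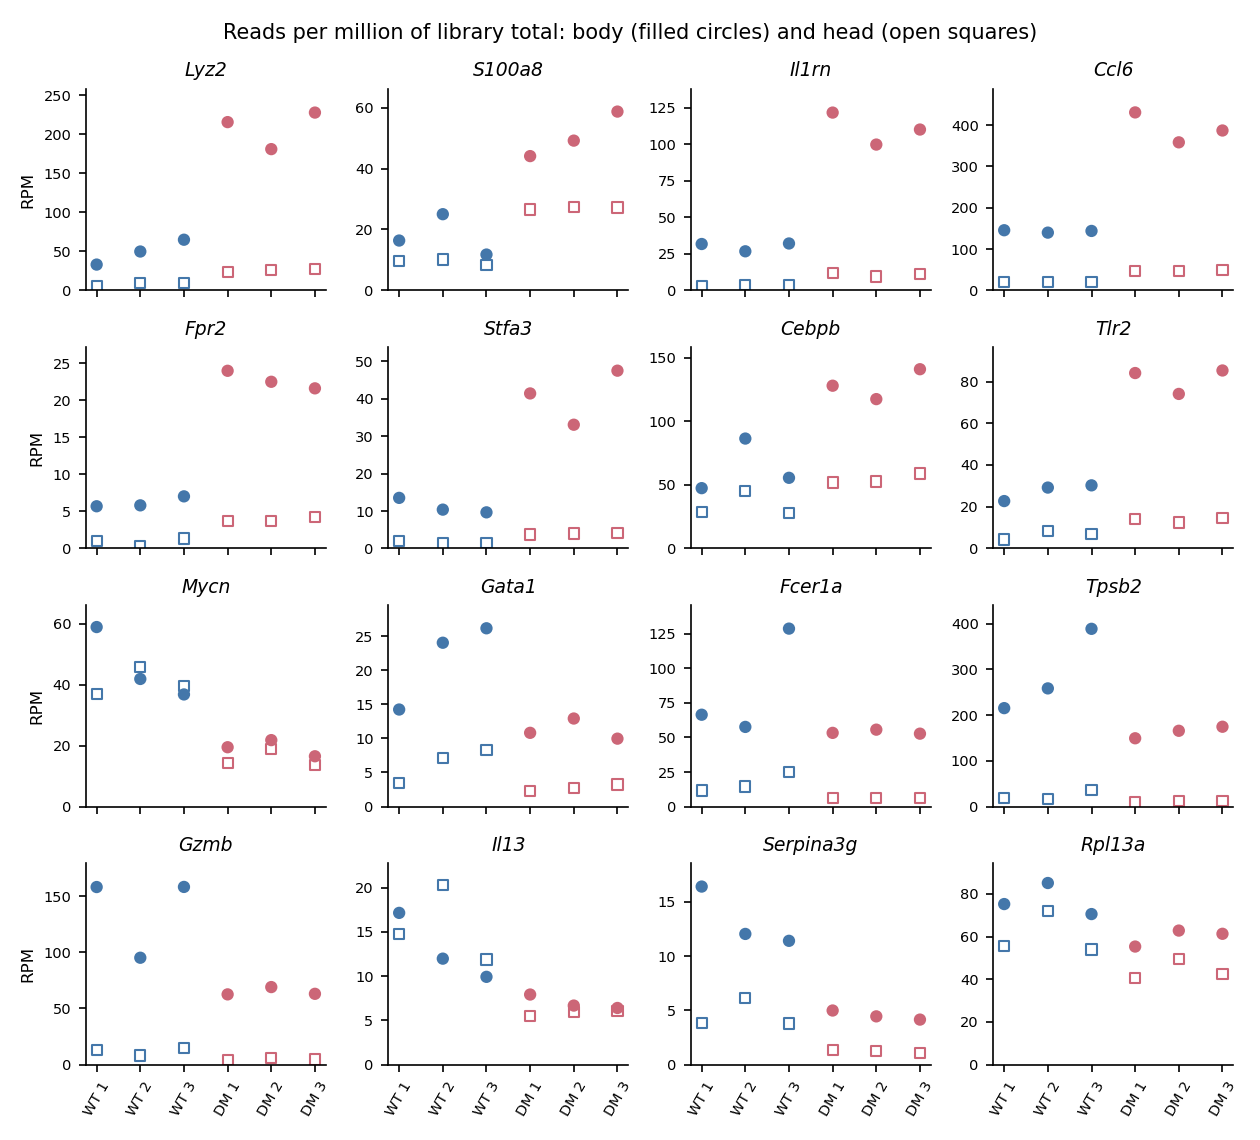
RPM in the body (filled circles) and head (open squares) of 16 short genes in WT replicates 1 to 3 (blue) and DM replicates 1 to 3 (red), each panel on its own linear scale from 0. Lyz2, S100a8, Il1rn and Ccl6 are higher in all 3 DM libraries, Mycn, Serpina3g and Il13 are lower in all 3, and in Gata1 and Fcer1a the WT libraries spread widely.

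Receptors coupled to G proteins were split, with 5 bodies higher and 3 lower among 8 genes, and 2 heads passing as higher and 3 as lower. Ffar2, Fpr2, Hcar2 and P2ry13 were among those higher in the body. The 3 that fell in both windows were Adora3, an adenosine receptor of mast cells, Lpar6, a receptor for lysophosphatidic acid, and Gpr171. Lpar6 had 221, 161 and 269 head reads in WT against 97, 144 and 86 in DM (-1.03 on the log2 scale, SE 0.28, edgeR adjusted p 0.0196). Adora3 and Gpr171 had head log2 fold changes of -0.85 and -0.94 (edgeR adjusted p 0.0345 and 0.0290). All 3 lie within or across another annotated gene, Tmigd3, Rb1 and Med12l.

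Granule proteins were split, with 4 of 8 bodies higher and 4 lower, and 2 heads passing each way. Lyz2, S100a8, Lcn2 and Cst3 were higher, and Tpsb2, Gzmb, Cd63 and Ctsg were lower. Gzmb (ENSMUSG00000015437.5; chr14:56258839-56262260) had 3632, 1438 and 3618 body reads in WT against 1429, 1396 and 1260 in DM, and its head fell from 12.1 ± 3.41 to 4.80 ± 0.978 RPM (SD, n = 3 each; log2 fold change -1.33, edgeR adjusted p 0.00907). Tpsb2 had 4944, 3903 and 8886 body reads in WT against 3410, 3349 and 3486 in DM, and a head log2 fold change of -1.11 (edgeR adjusted p 0.0243), which was -0.66 without WT replicate 3 (0.153) and -1.73 without WT replicates 1 and 2. In both genes the 3 WT libraries spread widely while the DM libraries lay close together. Tpsb2 has a near-identical neighbour in the tryptase cluster, so its reads are uncertain. Cd63, a tetraspanin of granule membranes, overlapped between groups, with body RPM of 68.5 ± 13.7 and 48.3 ± 4.49 (SD, n = 3 each).

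Fcer1a, the ligand-binding chain of the IgE receptor, had 268, 219 and 570 head reads in WT against 148, 127 and 122 in DM, a change of -1.44 on the log2 scale (SE 0.30, edgeR adjusted p 0.00821). Its body changed by -0.65 (SE 0.27), which was -0.20 without WT replicate 3 (edgeR adjusted p 0.0748) and -1.26 without WT replicates 1 and 2, and the ratio of head to body reads had a log2 change of -0.81 (edgeR adjusted p 0.218), which passed without WT replicate 2 (-0.66, 0.0430). Serpina3g, a serine protease inhibitor of blood cells in a cluster of close paralogs, had 88, 93 and 87 head reads in WT against 31, 26 and 22 in DM. It fell by 1.86 in the head on the log2 scale (SE 0.31, edgeR adjusted p 0.00532) and by 1.55 in the body.

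Among 9 transcription factor genes of blood cells, 3 bodies of 8 tested were higher, 5 were lower, and 4 heads passed, all lower. Cebpb, Cebpd and Hlx were the 3 that rose in the body. Cebpb, a C/EBP factor of granulocytes and macrophages (ENSMUSG00000056501.3; chr2:167688916-167690418), had 1090, 1306 and 1271 body reads in WT against 2923, 2374 and 2816 in DM. Its head was at 34.0 ± 9.78 and 54.5 ± 3.96 RPM (SD, n = 3 each) and did not pass (log2 fold change 0.68, edgeR adjusted p 0.0633), but passed without WT replicate 2 (0.94, 0.000173). Cebpd had 740, 1307 and 726 head reads in WT against 1474, 1269 and 1439 in DM, so its head overlapped between groups through WT replicate 2 (log2 fold change 0.41, edgeR adjusted p 0.406) while its body had a log2 fold change of 1.17. Without that library the head change was 1.06 and passed (edgeR adjusted p 6.05e-05). Cebpd overlaps Spidr in the annotation.

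Mycn, the N-Myc oncoprotein gene (ENSMUSG00000037169.15; chr12:12936094-12941914), had 852, 694 and 906 head reads in WT against 328, 381 and 271 in DM. Its head fell from 40.9 ± 4.56 to 15.6 ± 2.85 RPM (SD, n = 3 each; log2 fold change -1.39, SE 0.25, edgeR adjusted p 0.00542), and its body had a log2 fold change of -1.25. Gata1, the erythroid and mast cell factor, had 79, 108 and 190 head reads in WT against 52, 56 and 65 in DM (-1.18, SE 0.33, edgeR adjusted p 0.0218). Hes1, a repressor downstream of Notch, and Sox12 passed as lower in the head by -0.98 and -1.58 (edgeR adjusted p 0.0211 and 0.0175). The head of Lyl1 did not pass, with 127, 154 and 159 reads in WT against 128, 162 and 152 in DM (-0.09, SE 0.29, edgeR adjusted p 0.859), and its body RPM of 131 ± 36.9 and 90.6 ± 6.28 (SD, n = 3 each) overlapped. Hoxa9, a homeobox gene of progenitors, had 16, 33 and 10 body reads in WT against 2, 2 and 3 in DM, too few to be tested.

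Immediate early genes, which respond to signals without new protein synthesis, were mixed in the body (9 of 13 higher, 4 lower), and 3 of 11 heads passed, all higher. Sgk1, a kinase induced by serum and glucocorticoids, had 1803, 1279 and 1965 body reads in WT against 5614, 3856 and 5064 in DM. Its head rose by 0.89 (SE 0.28, edgeR adjusted p 0.0339), less than its body at 1.47, and the ratio of the windows had a log2 change of -0.54 (edgeR adjusted p 0.362). The other heads that passed were those of Id1, an inhibitor of helix-loop-helix factors, and Plk2, a kinase, at 0.95 and 0.77 (edgeR adjusted p 0.0217 and 0.0424).

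Suppressors of cytokine signalling did not share a direction. Cish and Socs1 had fewer body reads in DM, with log2 fold changes of -0.28 and -0.49, and Socs3 had more, at 0.89. Cish held 4.17% of all body reads of the short genes, the largest part of any, with 10425, 5856 and 8392 reads in WT against 7767, 6953 and 6248 in DM. Its body no longer passed without WT replicate 1 (-0.18, edgeR adjusted p 0.105) or without any DM replicate (0.0673 to 0.140). No head of the 3 passed (edgeR adjusted p 0.255, 0.516 and 0.598). Zfp36l1, which promotes decay of AU-rich mRNA, had about as many head as body reads, with 2584, 2320 and 2787 head reads in WT against 2905, 2287 and 2527 in DM. Its body log2 fold change of 0.41 was 0.11 with TMM scaling and no longer passed (edgeR adjusted p 0.399).

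The short ribosomal protein and ribosome assembly genes were all lower in the body, 8 of 8. Over all lengths 3 bodies were higher and 13 lower. With library totals 0 of the 8 heads passed the edgeR test and 1 had an unadjusted p under 0.05, whereas 2 heads passed with TMM scaling and 3 with DESeq2. The changes were small, with a median body log2 fold change of -0.45. Rpl13a had 1729, 1286 and 1614 body reads in WT against 1264, 1270 and 1225 in DM, or 77.0 ± 7.43 and 59.8 ± 3.96 RPM (SD, n = 3 each). Rpl38 went from 44.5 ± 3.37 to 35.9 ± 2.61 body RPM. Nop56, a core protein of box C/D snoRNPs, had 933, 636 and 969 head reads in WT against 957, 834 and 788 in DM. Its head did not separate (-0.03, edgeR adjusted p 0.942), while its body had a log2 fold change of -0.62. Without WT replicates 1 and 2 the body change was -0.21. Rpl13a and Nop56 host snoRNAs in their introns, and these genes also have many processed copies.

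Of 4 mitochondrial protein genes, Atp5k and Mrpl52 were higher in the body and Mrpl24 and Cox6b2 lower, and the head of Atp5k, a subunit of ATP synthase, passed as higher (0.84, edgeR adjusted p 0.0363). Neither increase in the body passed with TMM scaling (edgeR adjusted p 0.105 and 0.0599). The 3 short histone genes fell in the body. H1f10, a linker histone, had 180, 113 and 157 head reads in WT against 44, 61 and 27 in DM, and its head fell by 1.81 on the log2 scale (SE 0.31, edgeR adjusted p 0.00532). H2ax and H2az1, the H2A.X and H2A.Z variants, had body log2 fold changes of -0.71 and -0.66, with heads that did not pass (edgeR adjusted p 0.245 and 0.0565). Without WT replicate 2 these bodies were at -0.42 and -0.33 and still passed (edgeR adjusted p 0.0288 and 0.0192). Without WT replicates 1 and 2 the body of H2ax was at -0.15 and that of H2az1 at -0.25. The head of H2az1 had a log2 fold change of -1.03, which passed without WT replicate 1 (-1.28, 0.0113) and without WT replicate 3 (-1.32, 0.0478) and was -0.28 without WT replicate 2. The tubulin gene Tubb2b, which is no histone but was named by its head, had 126, 78 and 155 head reads in WT against 45, 46 and 36 in DM (-1.53, edgeR adjusted p 0.00542).

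Noncoding and unnamed transcripts made up 37 of the 246 genes. Of 35 tested, 17 bodies were higher and 18 lower, and 11 heads passed as higher and 7 as lower. Of all heads tested, 9.62% passed as higher and 10.9% as lower, and of the short heads 21.0% and 14.2%. Over all lengths, 80 bodies of such transcripts were higher and 58 lower. Gm10645, on 788 bp, had 21, 17 and 23 head reads in WT against 79, 49 and 82 in DM (1.72 on the log2 scale, SE 0.32, edgeR adjusted p 0.00648); it overlaps Tbc1d9. Gm36486 had more body reads in DM (0.97) but a head at 15.1 ± 2.10 and 15.03 ± 0.495 RPM (SD, n = 3 each). AI467606 had 1172, 698 and 1249 body reads in WT against 682, 644 and 671 in DM, while its head held 140, 31 and 132 against 116, 115 and 98 reads. A930104D05Rik and A730089K16Rik fell in both windows, by 1.39 and 1.89 on the log2 scale in the head (edgeR adjusted p 0.0350 and 0.0105), and AI480526 and Snhg15, a snoRNA host, had body log2 fold changes of -0.32 and -0.40 with heads that did not pass.

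In 12 short genes, 1 library carried most of the WT signal. WT replicate 1 held over 60% of the summed WT body RPM in these genes, among them Ccn1, Ccn2, Epop, Fgf4, Foxd3, Fzd10, Gdf3, Gm16127, Gm19426, Lefty1 and Sp5, where its median share over the short genes was 31.2%. Lefty1, an antagonist of Nodal (chr1:180935023-180938400), had 256, 29 and 39 body reads in WT against 17, 27 and 24 in DM. Its log2 fold change of -2.18 was -0.73 without WT replicate 1, where it no longer passed (edgeR adjusted p 0.0704). Fgf4, a growth factor of early embryos, had 182, 11 and 4 reads in WT against 5, 16 and 3 in DM, and its change went from -2.93 to -0.09 (edgeR adjusted p 0.920). Gdf3, a ligand of the TGF-beta family, went from -2.25 to -0.40 (0.463). Without WT replicates 1 and 2, which leaves 1 WT library, both turned sign, to 1.1 in Fgf4 and 0.34 in Gdf3. WT replicates 2 and 3 lay near the DM libraries in these 3 genes.

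The head of Epop, a partner of Elongin BC and of a Polycomb repressive complex, passed with 341, 412 and 309 reads in WT against 149, 175 and 164 in DM (-1.25, edgeR adjusted p 0.0141). Of 24 genes listed as markers of pluripotent cells after these values were seen, 7 were in the table, among them Nanog, and their summed body RPM was 57.7 in WT replicate 1, 15.4 and 9.31 in WT replicates 2 and 3, and 6.61 to 9.94 in DM. Of the 2 stromal and endothelial markers in the table, Notch3 was also highest in WT replicate 1, at 20.1 body RPM. The other, Cav1, was not, with 1.09, 0.993 and 1.01 in WT against 6.26, 3.07 and 4.05 in DM. What distinguishes that library was not tested.

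**Figure D5:**
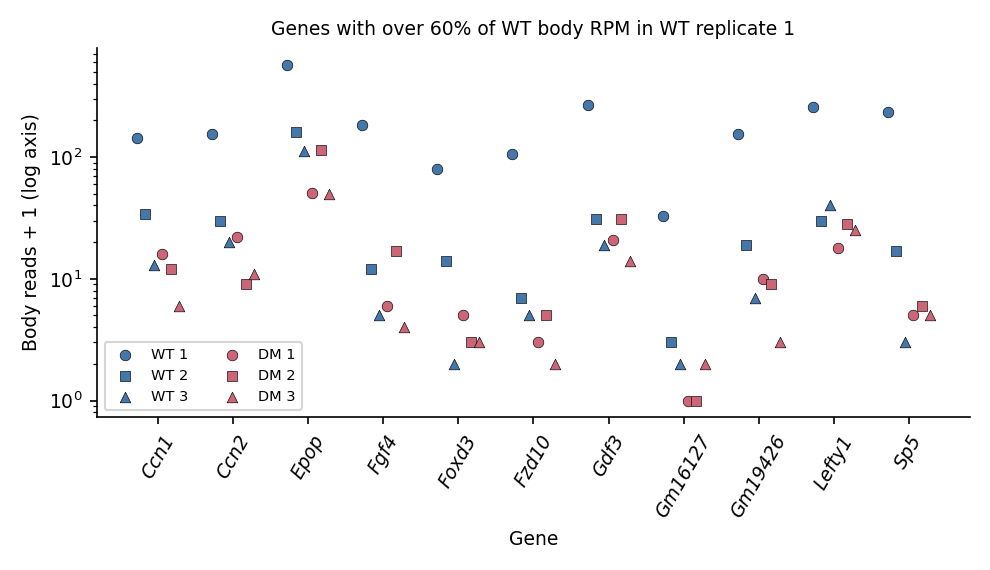
Body reads plus 1 (log axis) in each of the 6 libraries for 11 of the 12 short genes with over 60% of WT body RPM in WT replicate 1. The blue circle of WT replicate 1 lies above all other libraries in each gene, for example 256 against 17 to 39 reads in Lefty1.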

How the data were processed

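PRO-seq reads of 6 libraries were mapped to mouse; mm10, dm3, Bowtie 1.1.2 and bedtools 2.28 are named in the submitters' processing notes, with no roles given. Raw read counts per head and body window, and a total per library whose counting is not given in the sources used here, were deposited by the authors in 1 table of 3022 rows. RPKM values, log2 fold changes of body counts, and p-values with adjusted p-values of that comparison were also deposited by the authors; RPKM was recomputed from the counts to within rounding. The table held only rows with an adjusted p of at most 0.0498, so scaling by TMM from it would centre selected genes, and library totals were used instead, with TMM and DESeq2 1.42.0 as alternatives.

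Counts were tested on the whole table with edgeR 4.0.16 (quasi-likelihood, filterByExpr with a minimum count of 10 and total of 15, group only, R 4.3.3), adjusted by Benjamini-Hochberg. The ratio test was the interaction of window and group with library as block; SE is the absolute log2 fold change over the square root of F. Values per library were compared by two-sided exact permutation. A head to body density added 0.5 counts to each window. The tests were checked on simulated data with 200 genes changed. Whether replicate numbers pair the libraries is not given. The correlations of deviations between libraries of a number were -0.08, -0.20 and 0.35, which with 3 libraries per group cannot settle it. No libraries were duplicates: between replicates of a group, chi-square over its degrees of freedom was at least 4.48.

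Members and lists were chosen with earlier results of these data known. Genes were named by 1 rule: the 6 largest body changes each way among genes with a mean of at least 50 body counts and no overlap between groups; up to 6 head calls each way by adjusted p with a mean of at least 20 head counts; ratio calls; the 4 highest and 4 lowest head to body densities with at least 50 counts in both windows; up to 4 genes per list by mean body count; and the genes at both ends of the length range. Other genes were named after their values were seen, and a few genes that the rule named are not reported here. Of the 246 genes, 228 had a RefSeq symbol (214 protein-coding, 14 lncRNA), and 67 overlapped another RefSeq gene. No column of per-sample values was left unmapped.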

Additional observations from a re-analysis of the deposited data

How the results depend on the processing

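Without 1 library at a time, the head calls among the short genes ran from 5 to 125 in place of 82, the ratio calls from 0 to 7 and the body calls from 182 to 233 in place of 240. The head count was 5 without DM replicate 1, 21 without DM replicate 3, 40 without DM replicate 2, 54 without WT replicate 3 and 125 without WT replicate 2. In the same order, 0.532%, 4.27%, 7.9%, 11.9% and 36.0% of all heads tested passed. Over all genes, from 74.7% to 97.4% of bodies and from 0% to 3.14% of ratios passed without 1 library. The differences between groups ran from -9.04 to -1.79 for head reads per 100 body reads, from 0.0965 to 0.132 for the share of the library total in short bodies, and from -0.00618 to 0.202 for the short genes against the longer ones on the log2 scale; the last turned sign without WT replicate 2. The share difference turned to -0.0237 as a share of the table's body reads. Head calls numbered 126 with DESeq2, 131 with TMM factors, 139 without WT replicates 1 and 2, 25 at an adjusted p under 0.01 and 48 with a 4000 bp limit. With DESeq2, with TMM factors and at 0.01, these were 54.1%, 56.2% and 10.7% of the short heads tested. Of all heads tested, 36.1%, 38.2% and 4.58% passed in the same settings. Body calls numbered 150 (62.5%) at the stricter adjusted p, against 65.0% of all bodies tested, and 145 with the 4000 bp limit, against the unchanged 99.5%. Ratio calls rose from 0 to 2 with DESeq2, 2 without WT replicate 1, 7 without WT replicate 2 and 27 without both. In the first 3 of these settings, 1.55%, 0.858% and 3.00% of the short genes' ratios passed, against 1.87%, 0.73% and 3.14% of all ratios tested. The counts without both libraries rest on 1 WT library, so nothing particular to the short genes is read from them. The median log2 change of the ratio there was -0.11 in the short genes and -0.20 in all genes. The smaller gene set accounts for the counts at the 4000 bp limit and the stricter threshold for those at 0.01. The cause of the other changes was not tested.

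Replicate numbers are shared by the groups, and whether they pair the libraries is not known. With the replicate number as a block, 115 heads, 2 ratios and 237 bodies passed, and no direction changed. These were 49.4%, 0.862% and 98.75% of the short genes tested, against 31.1%, 1.44% and 96.8% of all genes.

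For the 71 changes that the naming rule chose, 791 of 851 alternative values kept direction and side of the threshold, 60 kept direction only and 0 reversed; 22 of the 60 were without DM replicate 1. Outside that rule, the bodies of Fgf4 and Gdf3 turned sign without WT replicates 1 and 2 (1.1 and 0.34). The median short gene had 146 head reads a library against 309.6 body reads; how far depth limits the calls was not tested.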

Other observations

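These short genes were chosen after their values were seen, and Actb, Ftl1, Cited2 and Ddit4 belong to no list above. Actb, cytoplasmic beta-actin, had the most head reads of the 246 genes, with 3597, 4084 and 4463 in WT against 4994, 4184 and 4581 in DM. Its body RPM was 245 ± 33.2 in WT against 354 ± 23.6 in DM (SD, n = 3 each), and its head did not pass (log2 fold change 0.08, edgeR adjusted p 0.848) except without WT replicate 2 (0.31, 0.0178), and its sign turned without WT replicate 1 (-0.09). Ftl1, the ferritin light chain, had body RPM of 88.7 ± 8.60 and 133 ± 13.3 (SD, n = 3 each), the same direction as Fth1, and a ratio log2 change of -0.06 (edgeR adjusted p 0.913) against -0.96 in Fth1.

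Cited2, a transcriptional co-regulator, and Ddit4, an inhibitor of mTORC1 signalling, had fewer body reads in DM. Cited2 had 3836, 4353 and 5271 body reads in WT against 3783, 3125 and 3266 in DM. Ddit4 had body RPM of 121 ± 30.4 in WT against 80.8 ± 1.85 in DM (SD, n = 3 each), and neither head passed (edgeR adjusted p 0.241 for Cited2 and 0.107 for Ddit4). Ctsg, the neutrophil protease cathepsin G, was lower in the body in DM, at 47.0 ± 2.72 and 26.2 ± 4.94 RPM (SD, n = 3 each), while Lcn2, lipocalin 2 of neutrophil granules, was higher, at 16.7 ± 9.23 and 38.3 ± 3.32.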
